A study of Bos taurus with 20 samples.

Results

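Integrins are cell surface receptors made of an alpha and a beta subunit, and they tie the cell to the matrix around it. The basement membrane is the sheet of laminin, collagen IV and associated proteins on which epithelia rest, and laminins are among the first matrix proteins made by mammalian embryos. Fibronectin is a matrix glycoprotein bound by integrins that hold the alpha 5 or alpha V subunit. The 10 genes described here are 5 integrin subunits (*ITGA5*, *ITGA6*, *ITGAV*, *ITGB1* and *ITGB5*), fibronectin (*FN1*), the 3 laminin chains *LAMA1*, *LAMB1* and *LAMC1*, which together form the embryonic trimer laminin-111, and the collagen IV chain *COL4A1*. They were found by gene symbol in the array annotation, each by the single probe set that carries that symbol alone, out of 18010 gene symbols so found among 26773 probe sets.

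The samples were cattle (*Bos taurus*) morulae, the stage before the blastocyst, produced in vitro with X-sorted sperm (female embryos) or Y-sorted sperm (male embryos). At Day 5 after insemination they received 100 ng/ml recombinant human DKK1 or vehicle (buffered saline with bovine serum albumin). DKK1 is a secreted inhibitor of WNT signaling. The embryos were harvested 24 h after treatment, at Day 6. Each of the 4 groups (female DKK1, female control, male DKK1 and male control) comprised 5 pools of 20 morulae, compacted and non-compacted, without the zona pellucida. RNA of each pool was amplified and hybridized to its own Affymetrix Bovine Gene 1.0 ST array, so there were 20 arrays. Sorting of sperm is incomplete and the sex of single embryos was not determined, so a pool can hold embryos of the other sex. In such pools, a change in the number of cells that express a gene and a change in RNA per cell cannot be told apart.

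All values are log2 intensities, on which a difference of 1 is a doubling of signal. The tested set comprised the 9842 probe sets, 36.8% of all, with a mean of at least 5.5 over the 20 arrays. The array of male control replicate 2 stood apart. Its mean correlation with the other arrays was 0.873, against 0.913 to 0.937 for the others. Its signal for *XIST*, the RNA of the inactive X chromosome, was 8.81, against 8.42 to 10.03 on female arrays and 6.30 to 8.22 on the other male arrays. The Y-linked gene *DDX3Y* had a signal of 4.82 on that array, against 2.65 to 5.43 on female arrays and 6.29 to 8.36 on the other male arrays. The main differences that rest on the male control group are therefore given with and without that array.

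The labelled stage was set against marker genes. Of 16 genes of blastomeres and the first lineages, 12 were in the tested set, among them *POU5F1* (mean 10.45), *GATA6* (10.57) and *KRT8* (10.77). *HNF4A* (4.82), *GATA4* (3.9), *SOX17* (4.13) and *FGF4* (5.14) were not. Of 18 genes of cumulus and granulosa cells, the somatic cells that surround the oocyte, only *SERPINE2* (mean 8.95) and *PTGS2* (7.78) were in the tested set. The mean over these 18 genes was 4.18 to 4.36 in female DKK1, 4.17 to 4.42 in female control, 4.14 to 4.31 in male DKK1 and 4.16 to 4.45 in male control arrays. Only *COL1A1* and *COL6A1* of 9 fibroblast and stromal genes reached the tested set. Of 6 blood cell genes *HBA* (mean 9.18), *CD68* (6.79) and *CD14* (5.66) were in it, while *PTPRC* (2.72), *HBB* (3.72) and *LYZ* (2.46) were not, and of 7 sperm genes *TNP2* (6.87) was. The part of such cells in the signals described here was not tested.

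Few integrin subunits gave signal. Of 17 alpha subunits on the array only *ITGA5*, *ITGA6* and *ITGAV*, and of 8 beta subunits only *ITGB1*, *ITGB5* and *ITGB3*, another partner of alpha V, had a mean of at least 5.5. The other alpha subunits had means of 2.72 to 4.61 and the other beta subunits 2.73 to 4.55. In comparison, 41.2% of all gene symbols had a probe set in the tested set. The 3 alpha subunits are the ones that, with beta 1, form the classical receptor for fibronectin (*ITGA5*), a laminin receptor (*ITGA6*) and a receptor for matrix proteins that carry the RGD motif (*ITGAV*).

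Among 10 laminin chains, only *LAMB1* (mean 8.30) and *LAMC1* (6.51) were in the tested set. *LAMA1* had a mean of 5.07, below the threshold, so its values are less certain than those of the other 9 genes. The other chains of the family had means of 3.02 to 5.22, the highest being *LAMC3*. Of 6 collagen IV chains only *COL4A1* (5.93) was in the tested set, and *COL4A2*, which forms the common collagen IV trimer with it, had a mean of 4.79. Other basement membrane components in the tested set were *SPARC* (11.12), *NID2* (7.16), *FBLN2* (7.09) and *NID1* (5.52), 4 of 26 genes. *HSPG2* (5.49) was just below the threshold. Signal depends on the probes as well as on the RNA, so these means do not rank the genes by abundance.

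**Figure D1:**
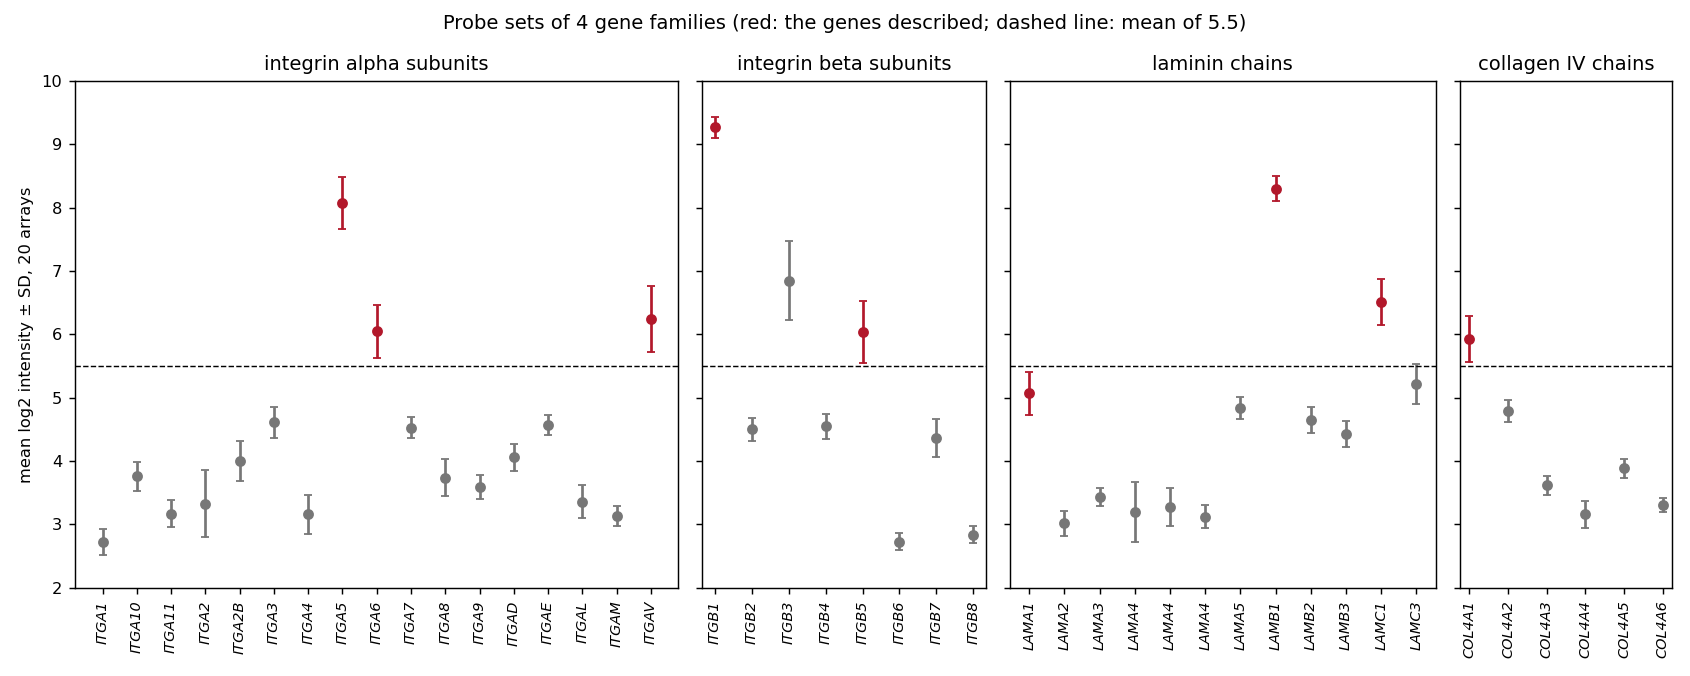
Mean log2 intensity (vertical axis) with its SD over 20 arrays for every probe set of the integrin alpha, integrin beta, laminin and collagen IV families, in alphabetical order. Red points are the genes described and the dashed line is the mean of 5.5. All red points but LAMA1 lie above the line, and ITGB3 is the only other gene of these families above it.

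The signal of *FN1* (probe set 12780102) was among the highest on the array, with a mean of 11.58 at the 99.3 percentile of all probe sets. It varied little, between 11.32 and 11.87 over the 20 arrays. *ITGB1* (probe set 12713619), the shared beta subunit of the fibronectin and laminin receptors, had a mean of 9.27 and a range of 9.03 to 9.61. The within-group SD was 0.11 for *FN1*, 0.16 for *LAMB1* and 0.17 for *ITGB1*, against a median of 0.37 over the tested set. These were the 3 lowest SDs of the 10 genes. Among tested probe sets with a mean within 0.5 of theirs, the SD was at the 29.1 percentile for *FN1*, the 1.2 percentile for *LAMB1* and the 9.7 percentile for *ITGB1*. The other 7 had within-group SDs of 0.33 to 0.54, with *ITGAV* and *ITGB5* the most variable, and small differences in them could not be detected at 5 arrays per group.

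**Figure D2:**
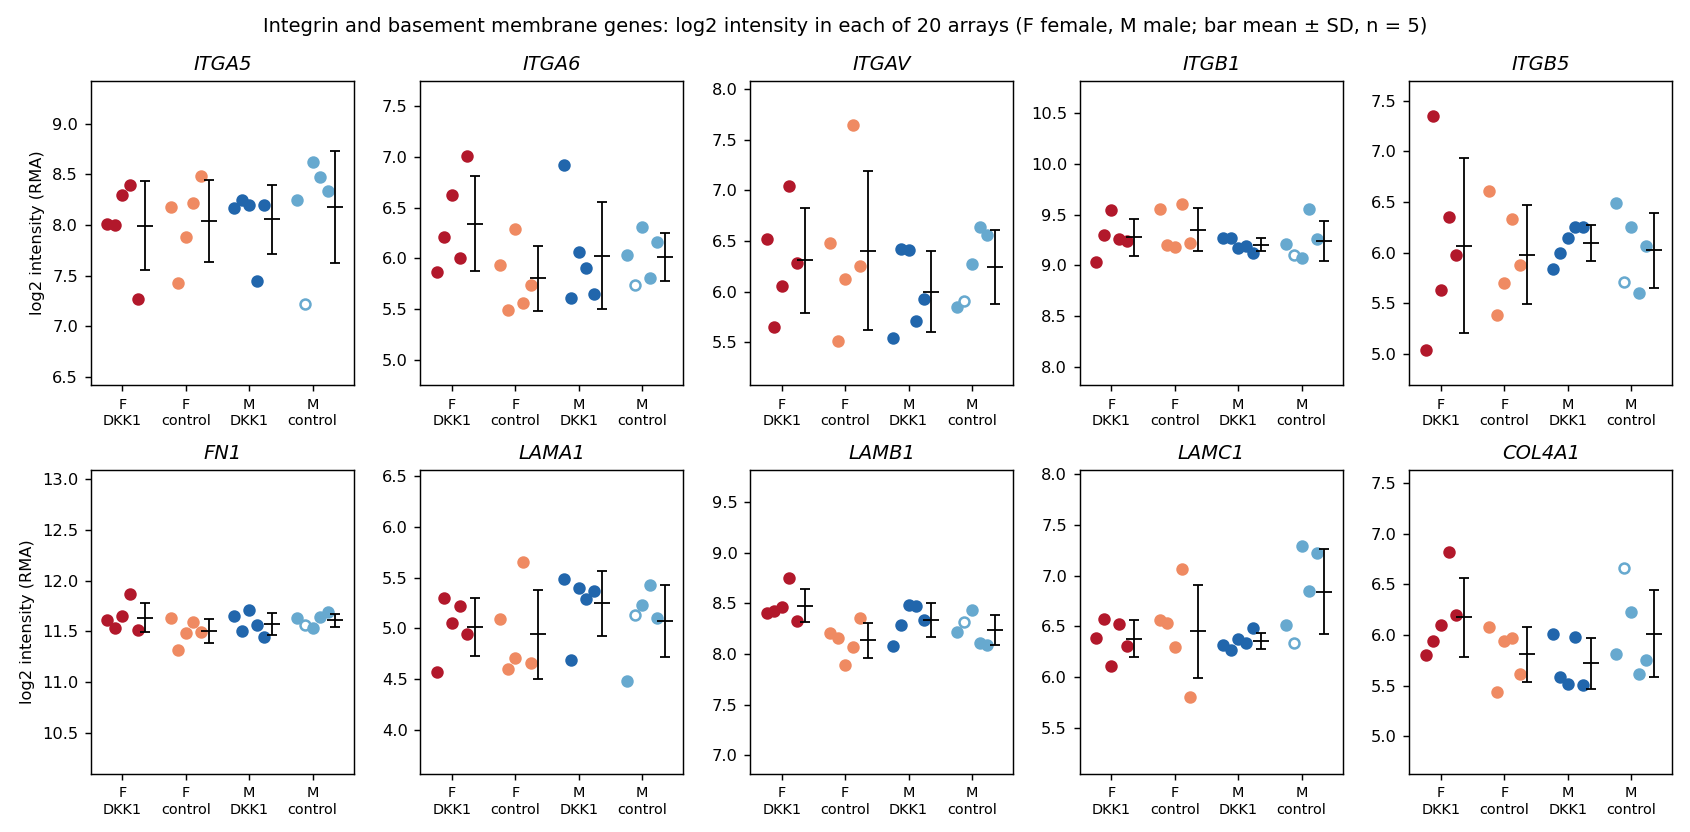
Log2 intensity (vertical axis, each panel spanning 3 units) of the 10 genes in each array of female DKK1, female control, male DKK1 and male control embryos; points are arrays, bars are the mean ± SD (n = 5), and the open point is male control replicate 2. Groups overlap for every gene; LAMC1 points are tightly packed in the DKK1 groups and spread out in the control groups.

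The first comparison asked whether DKK1 changed expression of these genes, averaged over the sexes. None of the 10 genes differed after adjustment for multiple testing (limma, Benjamini-Hochberg, lowest adjusted P = 1). No probe set of the 9842 did (0%). At an unadjusted P under 0.05 there were 355 probe sets (3.61%), and 1 of the 9 genes in the tested set, *LAMB1*. Of those 9 genes 5 had a higher mean with DKK1, as did 58.6% of the tested set, and 4 had a lower one. Their median difference was 0.04, against 0.03 for all tested probe sets.

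*LAMB1* (probe set 12854492) encodes the beta chain of laminin-111. Its signal was 8.41, 8.43, 8.47, 8.75 and 8.33 in female DKK1 pools, against 8.21, 8.16, 7.89, 8.07 and 8.36 in female controls. In males it was 8.08, 8.29, 8.49, 8.48 and 8.34 in DKK1 pools, against 8.22, 8.32, 8.44, 8.11 and 8.09 in controls. Thus 4 of 5 female DKK1 pools were above every female control, while the male groups overlapped widely. Averaged over the sexes, the signal was 8.41 ± 0.17 with DKK1 and 8.19 ± 0.16 in controls (SD, n = 10 arrays each). The difference was 0.22 (1.17-fold; 95% confidence interval 1.03 to 1.32-fold), with an unadjusted P = 0.0216 and an adjusted P = 1 by limma. Centred on array medians it was 0.18 with an unadjusted P of 0.0678 by limma, and it was under 0.05 whichever single array was left out.

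Within females the *LAMB1* difference was 0.34 (1.26-fold, interval 1.06 to 1.52, unadjusted P = 0.0136, adjusted P = 0.998 by limma). Within males it was 0.10 (1.07-fold, interval 0.896 to 1.29, unadjusted P = 0.423 by limma). The effect was not shown to differ between the sexes, since the difference between both effects was 0.24 with an interval of -0.13 to 0.61. The *LAMB1* difference without male control replicate 2 was 0.23 over both sexes and 0.12 in males, and the difference between both effects was 0.21.

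*LAMC1* (probe set 12736592) encodes the gamma chain of the same trimer. Its signal was 6.38, 6.57, 6.11, 6.52 and 6.31 in female DKK1 pools, against 6.56, 6.53, 6.30, 7.07 and 5.80 in female controls. In males it was 6.32, 6.27, 6.37, 6.34 and 6.48 in DKK1 pools, against 6.51, 6.34, 7.29, 6.85 and 7.22 in controls. All 5 male DKK1 pools were below the male control mean and close to one another, and the male controls were spread out. The means were 6.35 ± 0.08 in male DKK1 and 6.84 ± 0.42 in male control embryos (SD, n = 5 arrays each), a difference of -0.49 (0.713-fold, interval 0.53 to 0.96, unadjusted P = 0.0281, adjusted P = 0.986 by limma). Without male control replicate 2 the difference was -0.61 (unadjusted P = 0.00736 by limma). Without male control replicate 3 it was -0.38, with an unadjusted P of 0.0889 by limma, and it was likewise no longer under 0.05 without male control replicate 5 or male DKK1 replicate 2.

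In females *LAMC1* differed by -0.07 (interval -0.50 to 0.36), and over both sexes by -0.28 (0.824-fold, interval 0.667 to 1.02, unadjusted P = 0.0683 by limma). Without male control replicate 2 the difference over both sexes was -0.34 (unadjusted P = 0.0243, adjusted P = 0.999 by limma). For *LAMC1* the within-group SD pooled over the sexes was 0.14 with DKK1 and 0.44 in controls, a ratio of 0.32. Of the tested probe sets 1.39% had a ratio as low, and the median ratio was 0.91. No test of this ratio was made, as it was chosen after the values were seen.

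*LAMA1* (probe set 12809293), the alpha chain of laminin-111, averaged 5.13 ± 0.31 with DKK1 and 5.01 ± 0.38 in controls (SD, n = 10 arrays each). Its range was 4.57 to 5.49 with DKK1 and 4.48 to 5.65 in controls. The difference of 0.12 had an interval of -0.20 to 0.44 (adjusted P = 1 by limma over all 26773 probe sets).

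*COL4A1* (probe set 12711158) encodes the alpha 1 chain of collagen IV, the network-forming collagen of basement membranes. Its signal was 5.80, 5.94, 6.10, 6.82 and 6.20 in female DKK1 pools, against 6.08, 5.44, 5.94, 5.97 and 5.61 in female controls. In males it was 6.01, 5.58, 5.52, 5.98 and 5.51 in DKK1 pools, against 5.81, 6.66, 6.23, 5.61 and 5.75 in controls. The means therefore ran in opposite directions in the sexes: 6.17 ± 0.39 in female DKK1 and 5.81 ± 0.27 in female control embryos, but 5.72 ± 0.25 in male DKK1 and 6.01 ± 0.43 in male control embryos (SD, n = 5 arrays each). None of the 5 male DKK1 pools was above the male control mean, which is raised by the 6.66 of replicate 2, the array that stood apart. Among female DKK1 pools, 4 of 5 were above the female control mean. The groups of each sex overlapped.

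The difference was 0.37 in females (interval -0.08 to 0.82) and -0.29 in males (interval -0.74 to 0.16). For *COL4A1* the effect of DKK1 was higher by 0.66 in females than in males (interval of this interaction 0.02 to 1.29; adjusted P = 0.969 by limma). This was the only gene of the 9 with an unadjusted P under 0.05 for the interaction, where 4.6% of tested probe sets had one. The highest male control value, 6.66, came from replicate 2. Without that array the interaction was 0.50 (unadjusted P = 0.0898) and the difference in males was -0.13 by limma. Leaving out single arrays took it past 0.05 in 9 of 20 cases. No gene of the 9842 passed the adjusted P for the interaction (453 at an unadjusted P under 0.05 by limma).

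*FN1* was 11.63 ± 0.14 in female DKK1 and 11.50 ± 0.12 in female control embryos, and 11.57 ± 0.11 in male DKK1 and 11.61 ± 0.06 in male control embryos (SD, n = 5 arrays each). Over both sexes the *FN1* difference was 0.05 (1.03-fold), with an interval of 0.927 to 1.15-fold. *FN1* thus had the narrowest bounds on a DKK1 effect of the 10 genes.

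Among the integrin subunits, *ITGA6* (probe set 12783018), which pairs with beta 1 or beta 4 to bind laminin, was the one with an unadjusted P under 0.05 within a sex. Its signal was 5.87, 6.21, 6.63, 6.00 and 7.01 in female DKK1 pools, against 5.93, 5.49, 6.29, 5.56 and 5.74 in female controls. All 5 female DKK1 pools were above the female control mean, but only 2 were above every female control. The difference was 0.54 (1.45-fold, interval 1.01 to 2.09, unadjusted P = 0.0422, adjusted P = 0.998 by limma). Without female DKK1 replicate 5 it was 0.37 (unadjusted P = 0.142 by limma), and it was no longer under 0.05 without female DKK1 replicate 3 or female control replicate 2, 4 or 5 either. In males, where DKK1 replicate 1 reached 6.92, the difference was 0.02 (interval -0.50 to 0.54). The *ITGA6* effect in females minus that in males was 0.53 (interval -0.21 to 1.26), so a difference between the sexes was not detected. In the fit without male control replicate 2, the *ITGA6* difference in males was -0.05 and the interaction 0.59 (unadjusted P = 0.121 by limma).

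Counted within each sex, 2 of the 9 tested genes (*LAMB1* and *ITGA6*) in females and 1 of 9 (*LAMC1*) in males had an unadjusted P under 0.05. The shares over the tested set were 4.13% in females and 4.28% in males, and 0 of 9842 probe sets passed the adjusted P in either sex. With 9 genes, these counts differ from the shares by 1 or 2 genes only. For no gene did the DKK1 and control arrays of a sex stand fully apart, as they did for 0.64% of tested probe sets in females and 0.772% in males.

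The other 4 integrin subunits gave no DKK1 difference beyond the replicate spread. *ITGA5* (probe set 12856953) averaged 8.02 ± 0.37 with DKK1 and 8.11 ± 0.46 in controls, and *ITGAV* (probe set 12780286) averaged 6.16 ± 0.47 with DKK1 and 6.33 ± 0.58 in controls (SD, n = 10 arrays each). *ITGB1* averaged 9.24 ± 0.14 with DKK1 and 9.30 ± 0.20 in controls, and *ITGB5* (probe set 12683496) averaged 6.09 ± 0.59 with DKK1 and 6.00 ± 0.41 in controls. The interval for *ITGB1*, the subunit common to most of these receptors, was 0.841 to 1.1-fold. For *ITGAV* it was 0.639 to 1.24-fold, so a moderate change in *ITGAV* could not be detected. *ITGB5*, which pairs with alpha V alone, ranged from 5.04 to 7.35 within female DKK1 pools, the widest range in any group of the 10 genes. By contrast, the 5 male DKK1 pools lay between 5.84 and 6.25.

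*ITGA5* had single low arrays. Male DKK1 replicate 4 was at 7.45 while the other male DKK1 pools were at 8.17 to 8.25, and male control replicate 2 was at 7.22 while the other male controls were at 8.25 to 8.62. Without that control array the DKK1 difference of *ITGA5* in males was -0.36 (unadjusted P = 0.14 by limma), against -0.13 (interval -0.68 to 0.43) with it.

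**Figure D3:**
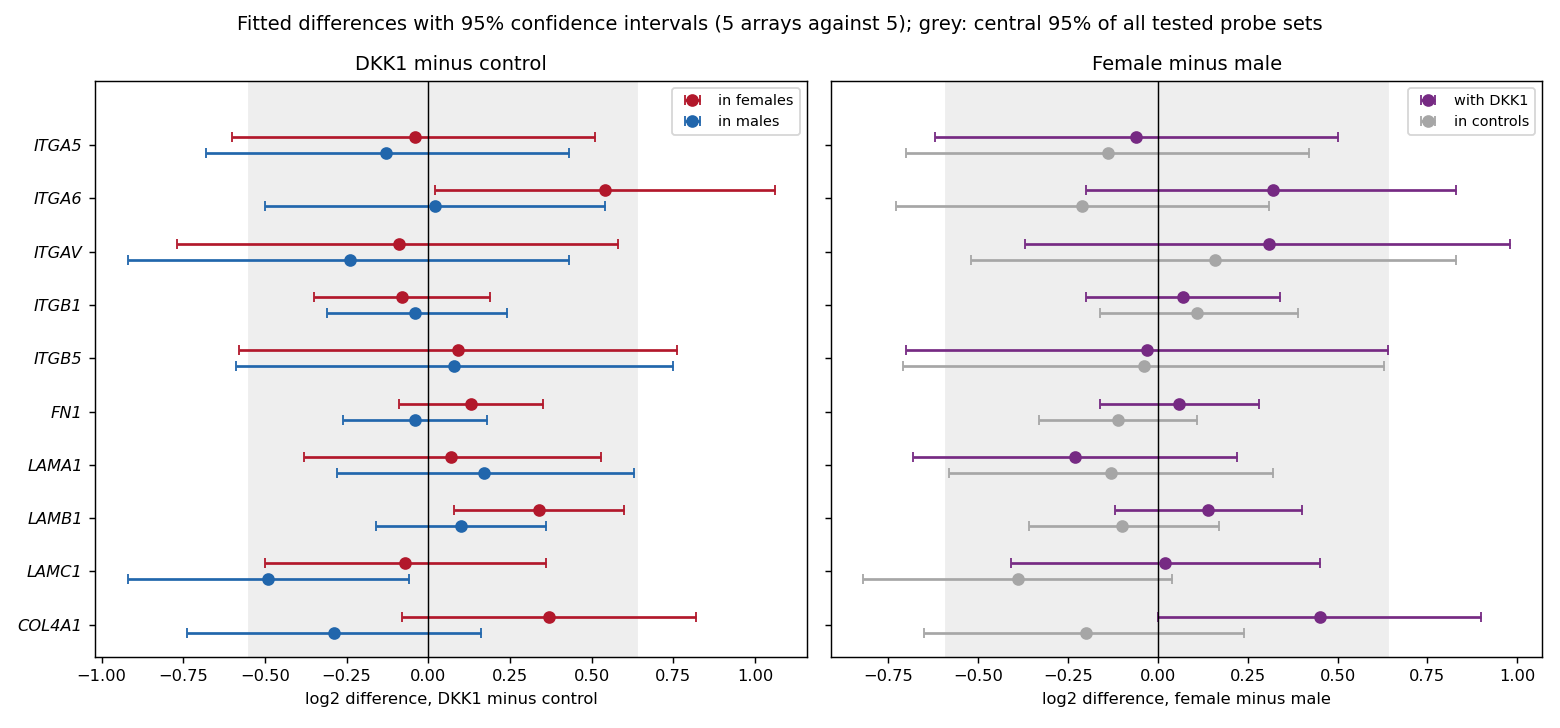
Fitted log2 differences (horizontal axis) of the 10 genes with 95% confidence intervals, DKK1 minus control in females and in males (left) and female minus male with DKK1 and in controls (right); the grey band spans the central 95% of tested probe sets in both comparisons of a panel. Only LAMB1 and ITGA6 in females, LAMC1 in males and, barely, COL4A1 between the sexes with DKK1 have intervals that leave out 0.

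The second comparison asked whether the genes differed between female and male embryos. None of them is on the X chromosome in the ARS-UCD2.0 assembly. Averaged over treatments, 0 of the 9 tested genes had an unadjusted P under 0.05 for sex by limma or by the unmoderated linear model, against 6.41% of the tested set, and 10 probe sets (0.102%) passed the adjusted P. Without male control replicate 2, 36 probe sets passed it, and still 0 of the 9 genes had an unadjusted P under 0.05, against 802 probe sets (8.15%) by limma. The fitted differences of these 9 genes, female minus male, were -0.18 to 0.23, and -0.25 to 0.21 without that array. The highest was that of *ITGAV*, with 6.36 ± 0.63 in female and 6.12 ± 0.38 in male embryos (SD, n = 10 arrays each; interval -0.24 to 0.71). The narrowest bounds were again those of *FN1*, with a difference of -0.02 and an interval of -0.18 to 0.13.

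With DKK1, *COL4A1* was the only gene of the 9 under an unadjusted P of 0.05, against 5.36% of the tested set. Its difference of 0.45 (1.37-fold; unadjusted P = 0.0478, adjusted P = 0.921 by limma) was 0.29 without female DKK1 replicate 4, the highest array (unadjusted P = 0.17), and it was past 0.05 in 12 of 20 cases with single arrays left out. All 5 female DKK1 pools were above the male DKK1 mean for *COL4A1*, and 1 probe set of the tested set (0.0102%) passed the adjusted P. In controls none of the 9 was under 0.05, against 6.22% of the tested set, and 0 of 9842 probe sets passed the adjusted P by limma (2 without male control replicate 2). The difference with the lowest value was that of *LAMC1*, with 6.45 ± 0.46 in female and 6.84 ± 0.42 in male control embryos (SD, n = 5 arrays each; difference -0.39, interval -0.82 to 0.04). Without male control replicate 2 it was -0.51 (unadjusted P = 0.0205, adjusted P = 0.664 by limma), and without female control replicate 5 it was -0.23 (unadjusted P = 0.251 by limma). With single arrays left out it was -0.54 to -0.23.

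In the order of the 4 groups, the gap between neighbouring means exceeded the within-group SD for 1 gene only, *LAMC1*, whose male control mean was 0.39 above the next group (within-group SD 0.33). Female DKK1 embryos had the highest mean of the 4 groups for *LAMB1* (8.48), *ITGA6* (6.34), *COL4A1* (6.17) and *FN1* (11.63). The lead over the next group was 0.14, 0.32, 0.16 and 0.02 in the same order. Each lead was below the within-group SD of that gene (0.16, 0.41, 0.34 and 0.11). For all of these genes but *COL4A1*, female controls had the lowest mean (8.14, 5.80 and 11.50). These orders were not set against those of the tested set. For the remaining genes the range of the 4 means was 0.12 (*ITGB5*) to 0.49 (*LAMC1*).

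Over the 20 arrays, subunits that form a receptor and chains that form a trimer had correlations of -0.22 to 0.43. Pearson's r was 0.29 for *ITGA5* and *ITGB1*, 0.01 for *ITGA6* and *ITGB1*, 0.43 for *ITGAV* and *ITGB1*, and 0.01 for *ITGAV* and *ITGB5* (Spearman's rho 0.26, 0.01, 0.29 and 0.07 in the same order). For the laminin chains it was -0.22 for *LAMB1* and *LAMC1*, 0.08 for *LAMA1* and *LAMB1*, and 0.41 for *LAMA1* and *LAMC1* (rho -0.15, 0.01 and 0.36). In deviations from the group means, *LAMA1* and *LAMC1* had an r of 0.56, and of 0.64 without male control replicate 2. Over all 45 pairs of the 10 genes the median r was 0.19, the lowest -0.25 (*ITGB1* and *LAMB1*) and the highest 0.48 (*FN1* and *COL4A1*). The r of *FN1* and *COL4A1* became 0.72 when arrays were centred on their medians. Their Spearman's rho was 0.30, and 0.43 after centring. Both genes had their highest value, 11.87 and 6.82, on the array of female DKK1 replicate 4. Of the 45 pairs 38 had an r above 0, and 36 had one when arrays were centred on their medians. These correlations are descriptions of 20 arrays in 4 groups, and no test was made.

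**Figure D4:**
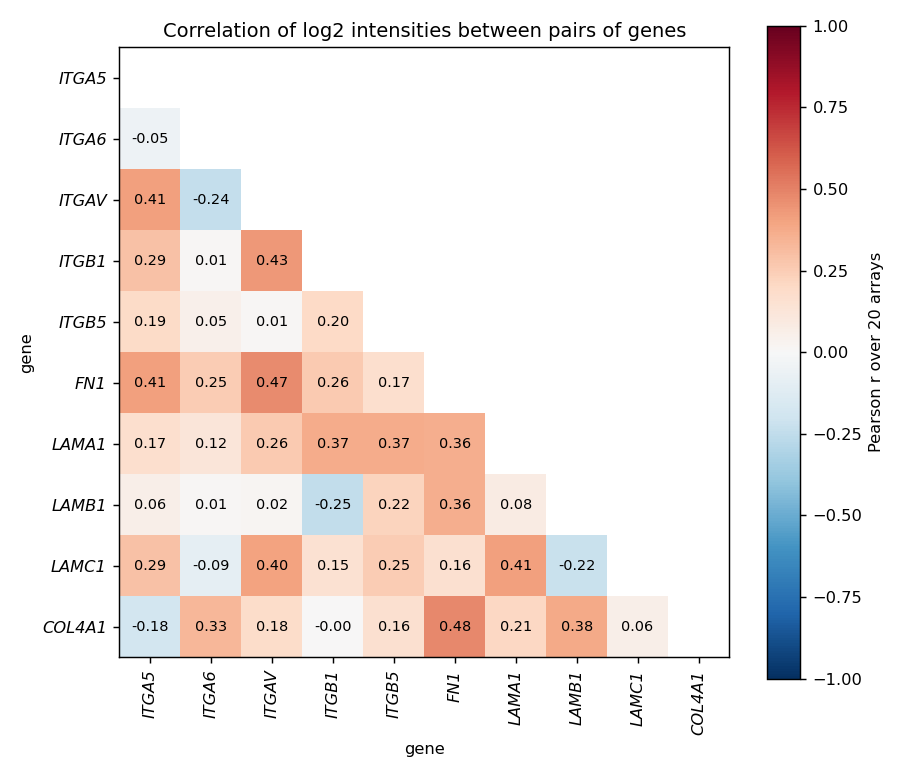
Pearson's r between the log2 intensities of each pair of the 10 genes over 20 arrays (colour and printed value; both axes list the genes). In the values as deposited no pair has an r above 0.48 or below -0.25.

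The matrix and adhesion lists hold few of the 9842 tested probe sets, at most 25 each. A most similar gene outside them was therefore likely in any case. For each tested gene, the most similar gene in the tested set was such a gene. It was *KAT8* for *ITGA5* (r = 0.80), *PLEKHA3* for *ITGA6* (0.76), *ZNF451* for *ITGAV* (0.67), *FNIP1* for *ITGB1* (0.76) and *DGKA* for *ITGB5* (0.71). Spearman's rho was 0.56, 0.65, 0.63, 0.63 and 0.74 in the same order. For the ligands the most similar gene was *ANKHD1* for *FN1* (r = 0.80), *ZCCHC8* for *LAMB1* (0.73), *C11H9orf78* for *LAMC1* (0.72) and *CCNA2*, the cell cycle regulator cyclin A2, for *COL4A1* (0.80). Here rho was 0.71, 0.61, 0.73 and 0.77 in the same order. Each named gene has the highest r over 20 arrays among tested probe sets with a single other gene symbol, so a high value comes with the choice. The central 95% of the correlations of *COL4A1* with all 9841 other tested probe sets ran from -0.59 to 0.50.

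Of 30 genes of adhesion complexes and non-integrin matrix receptors on the array, 24 (25 probe sets) were in the tested set. In comparison, 41.2% of all gene symbols had a probe set there. Among the 24 were the alpha-actinin *ACTN1* (mean 10.41), the tetraspanin *CD9* (11.29) and the kindlin *FERMT2* (8.31), an integrin activator. With DKK1, 13 of the 25 probe sets had a higher and 12 a lower mean, with a median difference of 0.01 against 0.03 for all tested probe sets. None passed the adjusted P (lowest 1 by limma). In each direction 1 probe set had an unadjusted P under 0.05 (2 of 25), against 3.61% of the tested set in either direction. *TLN1*, talin, which links integrins to actin, was 6.02 ± 0.13 with DKK1 and 5.79 ± 0.25 in controls (difference 0.24, unadjusted P = 0.0249 by limma). *SRC*, a tyrosine kinase of adhesion sites, was 5.67 ± 0.28 with DKK1 and 5.92 ± 0.23 in controls (difference -0.25, unadjusted P = 0.039 by limma; SD, n = 10 arrays each).

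*PTK2*, focal adhesion kinase, named after its values were seen, was the only one of the 25 with an unadjusted P under 0.05 for the interaction (-0.71, unadjusted P = 0.00506, adjusted P = 0.969 by limma), a share near the 4.6% of the tested set. Without male control replicate 2 it was -0.63. For sex, *CD47*, a partner of alpha V beta 3, was 7.09 ± 0.46 in female and 6.62 ± 0.40 in male embryos (difference 0.47, unadjusted P = 0.025, adjusted P = 0.625 by limma). No other probe set of this list was under 0.05 for sex, against 6.41% of the tested set. The *CD47* difference was 0.36 without male control replicate 2 (unadjusted P = 0.0532 by limma), and that of *SRC* for DKK1 was -0.22 (unadjusted P = 0.0678 by limma).

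Of the remaining lists, those of other integrin subunits (1 of 20 genes) and other basement membrane components (4 of 26) held few genes in the tested set. Both lists leave out the 10 genes described, 9 of which are in that set, so their shares are lowered by the choice. With those genes counted, 3 of 17 alpha and 3 of 8 beta subunits were in it. Of all gene symbols, 41.2% had a probe set in the tested set. Of other integrin ligands, 6 of 15 genes on the array were in it. For folding, crosslinking and turnover of collagen and matrix, 8 of 23 were. Of 20 other integrin subunits only *ITGB3* was tested, with a DKK1 difference of 0.25 in females and -0.25 in males and an adjusted P of 0.998 and 0.986 by limma. Of the 4 other basement membrane components none was under an unadjusted P of 0.05 for DKK1, sex or the interaction, with DKK1 differences of -0.20 to 0.10 (median -0.05). Of 6 other integrin ligands none was under 0.05 for DKK1 (median -0.05). *LTBP1*, which binds latent TGF-beta to the matrix, was 5.32 ± 0.40 in female and 5.72 ± 0.42 in male embryos (difference -0.40, unadjusted P = 0.0353, adjusted P = 0.69 by limma), and the difference was -0.41 without male control replicate 2.

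Of 9 probe sets (8 genes) for folding, crosslinking and turnover of collagen and matrix, none was under 0.05 for DKK1 (median -0.07), and 2 had a higher signal in females at an unadjusted P under 0.05, where 6.41% of the tested set was under 0.05 for sex in either direction. *TIMP1*, an X-linked gene for an inhibitor of matrix metalloproteinases, was 9.91 ± 0.25 in female and 9.18 ± 0.50 in male embryos (difference 0.73, unadjusted P = 0.000604, adjusted P = 0.123 by limma). *P4HA1*, a collagen prolyl hydroxylase subunit, was 7.07 ± 0.53 in female and 6.65 ± 0.37 in male embryos (difference 0.42, unadjusted P = 0.0456, adjusted P = 0.758 by limma). The median sex difference of the 9 probe sets was 0.27, against -0.01 over the tested set. With male control replicate 2 left out, the difference was 0.64 for *TIMP1* (adjusted P = 0.13 by limma) and 0.36 for *P4HA1* (unadjusted P = 0.0903 by limma).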

How the data were processed

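Each deposited value is the log2 intensity of 1 probe set on 1 array. The authors computed these values by RMA (background correction, log2 scale, quantile normalization) in Affymetrix Expression Console. Versions are not given in the sources used here. The number of arrays limits the precision.

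Symbols came from the platform annotation: 18457 probe sets carried 1 symbol, 688 several and 7628 none. All 10 genes matched the ARS-UCD2.0 gene table by identifier. Groups came from the labels. A linear model of the 4 groups was fitted to all 20 arrays in R 4.3.3 with limma 3.58.1 and moderated variances. It had no replicate term, and neither did the ANOVA of the study, which held treatment, sex and their interaction. P values were adjusted by Benjamini-Hochberg, where the study used a sequential goodness-of-fit test. The adjustment covered the 9842 probe sets with a mean of at least 5.5, since the negative control probes of the study's criterion were not used here. *LAMA1*, below that mean, came from the same model over all 26773 probe sets. Confidence intervals are at 95%. In the study, pools were harvested in replicates, and each fertilization procedure took X- and Y-sorted sperm from the same bulls. The labels do not say whether a pool number marks such a replicate, so P values measure the spread between pools. The model was tested on simulated data.

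Named are the 10 genes, in each list the probe sets with the highest and lowest difference at an unadjusted P under 0.05 for DKK1 and for sex and any past the adjusted P, and the most similar gene of each. Genes and lists were chosen with earlier results of these data known. The alternatives tried comprised an unmoderated linear model, replicate number as a fixed or as a random block, an intensity trend with robust prior, array weights, a mean of at least 5 or 6 or no threshold, centring on array medians, quantile normalization over the tested set and leaving out each array. Other steps ran in Python 3.11.15 (pandas 2.3.3, NumPy 2.4.6, SciPy 1.17.1); plots used matplotlib 3.10.9.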

Additional observations from a re-analysis of the deposited data

Results flagged for a closer look

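Within the 40 groups of 5 arrays (10 genes, 4 groups), 3 single arrays lay far from the others of their group, with a gap to the nearest value above 0.71 of the whole range; chance alone gives such a gap in about 1 of 20 groups. *ITGA5* was 7.45 in male DKK1 replicate 4, against 8.17 to 8.25 in the other male DKK1 pools. *ITGA5* was 7.22 in male control replicate 2, the array that stood apart, against 8.25 to 8.62 in the other male controls. *LAMA1* was 4.69 in male DKK1 replicate 2, against 5.29 to 5.49 in the others.

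The effect of DKK1 on *COL4A1* was higher by 0.66 in females than in males, with an unadjusted P of 0.0429 and an adjusted P of 0.969 by limma, so it did not pass the correction. It was 0.50 without male control replicate 2.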

How the results depend on the processing

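Under the 30 alternatives, 20 of which left out 1 array, no difference of any of the 10 genes passed the adjusted P (lowest 0.632), as in the results above. Fitted differences changed sign in 68 cases when an array was left out and in 10 cases otherwise. In the main fit, before the change of sign, each of these differences was at most 0.52 of its SE.

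At an unadjusted P under 0.05, the number of the tested genes for the DKK1 effect was 1, but 2 (*LAMB1* and *LAMC1*) with array weights, and 1 to 2 when single arrays were left out. Centred on array medians it was *LAMC1*, and not *LAMB1*, that was under 0.05, and likewise with quantile normalization over the tested set. The number for the interaction was 0 in place of 1 with a fixed replicate block, an intensity trend and robust prior, array weights or a mean of at least 6 (which leaves out *COL4A1*), and 0 to 2 with single arrays left out. In females it was 1 (*LAMB1*) in place of 2 with the unmoderated linear model or centring, and 1 to 2 with arrays left out. In males it was 0 to 1 with arrays left out. Between the sexes with DKK1 it was 0 in place of 1 with a fixed replicate block, the unmoderated linear model, the trend and robust prior, a mean of at least 6, centring or quantile normalization, and 0 to 2 with arrays left out. Between the sexes in controls it was 1 (*LAMC1*) in place of 0 with array weights or centring, and 0 to 1 with arrays left out. The causes were not tested, apart from the threshold that leaves out a gene.

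The labels do not say that a replicate number marks a shared procedure, and the arrays were not treated as paired. Deviations from group means of same-numbered arrays had correlations of -0.18 to 0.14, with 2 of 30 pairs over 0.1. Of the 20 arrays, 12 were closest to an array of their own number in another group. This is a hint of pairing from the data, which the labels do not settle. The random replicate block (consensus correlation 0.0112) changed no count of these genes, and the fixed replicate block changed only the 2 named. Of the correlations between partners, that of *LAMA1* and *LAMC1* was 0.42 under all 3 alternatives, that of *ITGA5* and *ITGB1* was 0.07 after centring, that of *ITGA6* and *ITGB1* -0.03 without male control replicate 2, and that of *ITGAV* and *ITGB5* -0.04 with quantile normalization. The probe sets past the adjusted P for sex numbered 36 without male control replicate 2 and 43 with array weights, in place of 10. With 5 arrays per group, the confidence intervals of DKK1 differences within a sex had a median width of 0.91, and *LAMA1* lay below the threshold on mean signal.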
